A study of Mus musculus with 15 samples.

Results

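The 8 genes described here are the mouse liver Cyp2a genes Cyp2a4, Cyp2a5, Cyp2a12 and Cyp2a22, the Cyp2b genes Cyp2b9, Cyp2b10 and Cyp2b13, and Nr1i3, which encodes the constitutive androstane receptor (CAR). They were taken by symbol from the 56980 Ensembl gene IDs of the count table, and all 8 passed the filter on low counts, which kept 14627 genes. Liver RNA came from wild-type male C57BL/6J mice placed on a diet at 15 weeks of age and kept on it for 9 months. The diets were a control diet with 10% fat, a high-fat diet with 60% fat and a ketogenic diet with 89.9% fat, and the purpose given by the title is to describe the liver on a ketogenic diet. The comparisons used 4 control, 5 high-fat and 5 ketogenic libraries, since control replicate 1 was set aside by the submitters as contaminated.

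The Cyp2a and Cyp2b genes encode cytochrome P450 enzymes of the endoplasmic reticulum, which oxidise drugs, plant compounds and steroids with electrons from the reductase encoded by Por. CAR is a nuclear receptor that pairs with RXR on DNA, and Cyp2b10 is its classic target in mouse liver, induced by phenobarbital. Several of these genes are also sex-biased in mice: Cyp2b9, Cyp2b13 and Cyp2a4 are known as female-biased liver genes, kept low in males by the male pattern of growth hormone release. Cyp2a5 hydroxylates coumarin and is known as an inducible gene, and Cyp2a4, its near-identical copy, hydroxylates steroids. All 7 P450 genes lie in 1 cluster on chromosome 7, and Nr1i3 lies on chromosome 1.

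The 250 bases before the transcription start are shown for the Cyp2b genes and for Cyp2a4 and Cyp2a5, so that their promoters can be compared. Those of Cyp2a12 and Cyp2a22 are not shown. They were read from the RefSeq promoter table of build GRCm38.p6, in which all 8 genes matched by symbol, and each is given 5′ to 3′ on the plus strand. Capitals mark aligned bases that differ from the gene named in brackets, and bases with no aligned partner stay in lower case.
Cyp2b9 (against Cyp2b13, chr7:26173159-26173408): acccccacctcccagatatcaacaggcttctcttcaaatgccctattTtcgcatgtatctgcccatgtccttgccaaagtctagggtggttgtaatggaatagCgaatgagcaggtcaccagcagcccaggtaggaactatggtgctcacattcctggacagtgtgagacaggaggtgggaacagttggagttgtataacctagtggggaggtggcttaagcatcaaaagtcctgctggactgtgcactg
Cyp2b13 (against Cyp2b9, chr7:26061245-26061494): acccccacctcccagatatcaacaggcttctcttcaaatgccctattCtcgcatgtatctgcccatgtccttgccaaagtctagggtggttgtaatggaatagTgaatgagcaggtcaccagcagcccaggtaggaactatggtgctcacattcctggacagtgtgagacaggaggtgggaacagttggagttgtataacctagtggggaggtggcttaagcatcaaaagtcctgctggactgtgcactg
Cyp2b10 (against Cyp2b9, chr7:25897408-25897657): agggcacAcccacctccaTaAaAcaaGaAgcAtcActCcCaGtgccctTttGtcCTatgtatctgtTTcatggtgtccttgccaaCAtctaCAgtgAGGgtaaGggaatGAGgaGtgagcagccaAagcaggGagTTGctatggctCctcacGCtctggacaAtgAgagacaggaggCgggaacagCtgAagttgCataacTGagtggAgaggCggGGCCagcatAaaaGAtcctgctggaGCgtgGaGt
Cyp2a4 (against Cyp2a5, chr7:26306942-26307191): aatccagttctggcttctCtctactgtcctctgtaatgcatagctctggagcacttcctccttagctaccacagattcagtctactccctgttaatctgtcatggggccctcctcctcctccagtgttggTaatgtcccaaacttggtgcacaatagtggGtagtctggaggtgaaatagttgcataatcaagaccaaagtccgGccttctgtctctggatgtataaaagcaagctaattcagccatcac
Cyp2a5 (against Cyp2a4, chr7:26835089-26835338): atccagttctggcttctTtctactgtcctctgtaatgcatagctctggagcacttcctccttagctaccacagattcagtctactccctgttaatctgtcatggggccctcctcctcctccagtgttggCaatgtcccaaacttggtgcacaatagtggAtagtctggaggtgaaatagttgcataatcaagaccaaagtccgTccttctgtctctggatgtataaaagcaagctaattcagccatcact

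The Cyp2b9 and Cyp2b13 windows shared 248 of 250 bases, with the substitutions T48C and C104T. Here the Cyp2b9 base comes first and positions are counted from 1 at the 5′ end of the window. The Cyp2a4 and Cyp2a5 windows shared 245 of 249 aligned bases, with C19T, T131C, G161A and G205T, where the Cyp2a4 base comes first and positions are those of Cyp2a4. Cyp2b10 was further away, with 182 of 240 aligned bases shared with Cyp2b9. The half-site AGGTCA, searched on both strands as a motif known from nuclear receptor binding, lay once in Cyp2b9 and once in Cyp2b13, at position 113 on the plus strand of each, and in none of the windows of the other 6 genes. Of 32851 promoter windows in the table, 14% held it. TATAAA was found once in each of the 4 Cyp2a windows and in none of the Cyp2b or Nr1i3 windows, against 12.4% of all windows. The direct repeats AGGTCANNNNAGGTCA and AGGTCANAGGTCA and the STAT core TTCNNNGAA had no match in any of the 8 windows, and all windows held them in 0.0152%, 0.0335% and 7.02% of cases. Any direct repeat would also have counted as a half-site. The known CAR response enhancer of Cyp2b10 lies further upstream, outside these windows.

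Transcripts were also alike. In annotated transcripts (GENCODE M21, build GRCm38, an earlier build than that of the counts), Cyp2a4 and Cyp2a5 shared 98.27% of aligned bases, Cyp2a12 and Cyp2a22 96.53%, and Cyp2b9 and Cyp2b13 91.94%. Of all 50-base stretches of a transcript, the share found in no other annotated gene was 61.99% for Cyp2a4, 59.16% for Cyp2a5, 72.49% for Cyp2a12 and 74.3% for Cyp2a22. It was 88.83% for Cyp2b9, 90.31% for Cyp2b10, 72.73% for Cyp2b13 and 100% for Nr1i3. The sources used here do not give how reads matching several genes were treated, which leaves the split of counts within each copy pair uncertain. Nr1i3 has no near copy, but 3304 bases of its annotated exons overlap exons of Tomm40l on the opposite strand. Nor do they give the strand setting of the counting. Tomm40l held 1230 counts in the control, 1086 in the high-fat and 911 in the ketogenic libraries, beside 10709, 25332 and 43312 for Nr1i3.

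Library totals ran from 16329425 to 25349148 counts, and the 91 library pairs correlated at 0.934 to 0.990 (Spearman, over genes), with no identical pair. The labels do not say that libraries came from separate mice, so where livers are counted here, libraries are meant. A p-value here sets the difference between diets against the scatter of these samples, which may be technical. Hepatocyte markers were abundant in every library, as the liver label says: the 7 hepatocyte marker genes measured summed to 133310 to 164120 CPM in control libraries, 88025 to 125040 CPM on the high-fat diet and 68364 to 126290 CPM on the ketogenic diet. CPM here are counts set relative to the library total, with TMM factors applied. In whole-tissue RNA, fewer cells of a type and less RNA per cell cannot be told apart. Library numbers in the sample titles fell below 10 or at 13 and above, and values from the 3 libraries per diet numbered 13 and above are given where they moved a result.

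In high-fat against control livers, 5 of the 8 genes rose (Nr1i3, Cyp2b9, Cyp2b13, Cyp2b10 and Cyp2a22), none fell and 3 did not pass the test. Over all tested genes 6.95% were higher and 5.01% lower in that comparison (edgeR quasi-likelihood test, Benjamini-Hochberg adjusted p under 0.05). In ketogenic against control livers, 4 of the 8 rose (Nr1i3, Cyp2b9, Cyp2a22 and Cyp2a12), none fell and 4 did not pass, against 7.47% higher and 4.60% lower over all genes. Between the ketogenic and high-fat diets edgeR called none of the 8, and 0.0615% of all genes (0.00684% higher and 0.0547% lower), although 1273 of the 14627 had an unadjusted p under 0.05. DESeq2 called none of the 8 there either. The median log2 fold change of the 8 genes was 2.49 for high-fat against control and 1.66 for ketogenic against control, beside 0.0075 and 0.031 over all tested genes. Levels of the 2 groups did not overlap for 4 of the 8 genes in the first comparison and 5 in the second, where 16.2% and 12.5% of all genes did not overlap. Between the fat-rich diets all 8 overlapped, against 1.76% of all genes that did not. Both comparisons used the same 4 control libraries, so their likeness is not independent.

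**Figure D1:**
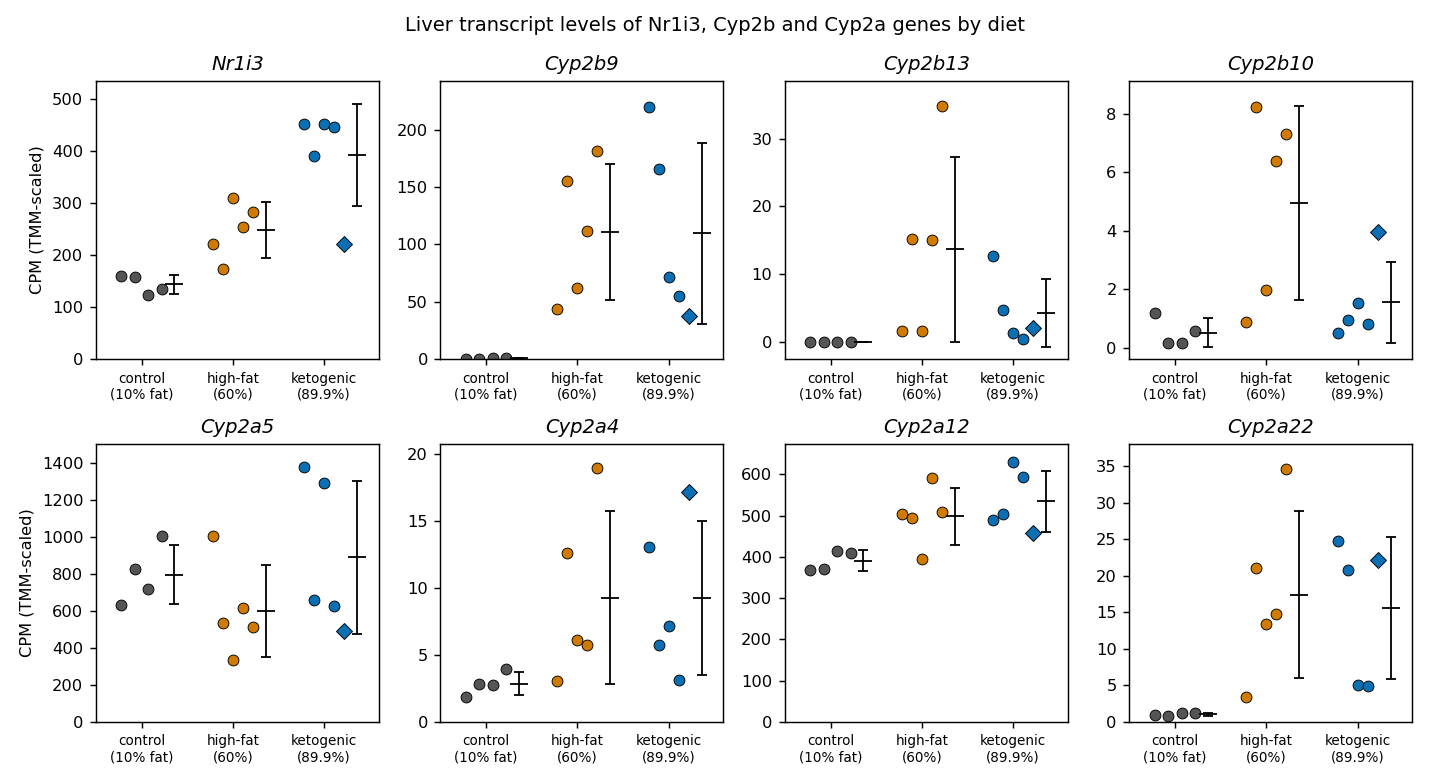
Level of each gene in every library, in CPM on a linear axis, with the mean ± SD of each diet beside the points (n = 4 control, 5 high-fat and 5 ketogenic libraries). The diamond is ketogenic replicate 5, which was low for Nr1i3 (222 CPM) and high for Cyp2a4 (17.2 CPM); the lower SD bar of Cyp2b13 passes below 0 on the ketogenic diet because its SD is larger than its mean.

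Nr1i3, the receptor gene, was higher on both fat-rich diets. Its level in control replicates 2 to 5 was 160, 159, 122 and 135 CPM. In high-fat replicates 1 to 5 it was 222, 173, 310, 255 and 283 CPM, and in ketogenic replicates 1 to 5 it was 452, 390, 451, 446 and 222 CPM. Each of the 10 livers on a fat-rich diet lay above all 4 controls, and 4 of the 5 ketogenic livers lay above all high-fat livers, while ketogenic replicate 5 lay among them. The means were 144 ± 18.4 CPM in control (SD, n = 4), 248 ± 53.4 in high-fat and 392 ± 98.6 in ketogenic livers (SD, n = 5). The log2 fold change was 0.79 ± 0.21 (SE) for high-fat against control, with an edgeR adjusted p of 0.0219, and 1.44 ± 0.21 for ketogenic against control, with an edgeR adjusted p of 0.000377. The high-fat call was lost without control replicate 4 or 5 or high-fat replicate 3 or 5, with adjusted p-values of 0.0821, 0.0663, 0.0573 and 0.0525. Between ketogenic and high-fat livers the difference was 0.66 ± 0.19 with an edgeR adjusted p of 0.248. Without ketogenic replicate 5 it was 0.81 with an adjusted p of 0.00996. That library also had the lowest summed level of the hepatocyte markers, 68364 CPM, and the highest of the 5 resident Kupffer cell markers, 508 CPM against 169 to 385 in the other 13 libraries. Their part in the low value was not tested.

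Cyp2b9, the female-biased steroid-oxidising P450, made up most of the Cyp2b counts on the fat-rich diets and had the largest fitted change among the genes with counts in every diet. Control replicates 2 to 5 held 3, 3, 23 and 18 counts, or 0.170, 0.153, 1.18 and 1.03 CPM. In high-fat replicates 1 to 5 the level was 43.5, 156, 61.7, 112 and 182 CPM, and in ketogenic replicates 1 to 5 it was 220, 166, 71.9, 55.0 and 37.3 CPM. The lowest liver on a fat-rich diet was thus far above the highest control, whereas the 2 fat-rich diets spanned much the same range. The log2 fold change was 7.44 ± 0.87 for high-fat and 7.43 ± 0.87 for ketogenic against control, with edgeR adjusted p-values of 0.000343 and 0.000196. The size of the fold rests on 47 control counts in all. Ketogenic against high-fat gave −0.01 ± 0.54 with an edgeR adjusted p of 0.997, which does not show that the diets act alike, given an SE of that size. Among the libraries numbered 13 and above, the changes against control were 7.24 and 6.12.

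Cyp2b13, the female-biased neighbour of Cyp2b9, had 0 counts in all 4 control libraries. High-fat replicates 1 to 5 held 26, 255, 35, 373 and 702 counts (1.5, 15.1, 1.64, 15.1 and 34.9 CPM), and ketogenic replicates 1 to 5 held 298, 98, 26, 7 and 55 counts (12.6, 4.73, 1.33, 0.322 and 2.01 CPM). It was therefore detected in all 10 livers on a fat-rich diet, at levels that differed 23.2-fold within the high-fat and 39.3-fold within the ketogenic group. With 3 counts over the 4 controls as the limit that 0 allows, the mean was at least 338-fold higher in high-fat livers (edgeR adjusted p = 0.0273). It was at least 104-fold higher in ketogenic livers, where the edgeR adjusted p of 0.0654 missed the threshold and DESeq2 gave 9.4e-07. Single libraries carry part of these bounds, which were 207 without high-fat replicate 5 and 52.0 without ketogenic replicate 1. The high-fat call was lost without control replicate 3, 4 or 5 or high-fat replicate 4, at adjusted p-values of 0.0503 to 0.0647, and with no filter on low counts (0.0684) or only these diets in the fit (0.0768). Ketogenic against high-fat gave −1.69 ± 1.07 with an edgeR adjusted p of 0.730, and −3.79 (adjusted p = 0.907) among the libraries numbered 13 and above.

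Cyp2b10, the classic CAR target, stayed at a low level throughout. Its level in control replicates 2 to 5 was 1.19, 0.153, 0.154 and 0.571 CPM, from 37 counts in all. High-fat replicates 1 to 5 had 0.867, 8.24, 1.97, 6.40 and 7.31 CPM, and ketogenic replicates 1 to 5 had 0.509, 0.966, 1.53, 0.827 and 3.95 CPM. On the high-fat diet 4 of 5 livers lay above all controls, and high-fat replicate 1 lay below control replicate 2. On the ketogenic diet only replicates 3 and 5 lay above the highest control. Its log2 fold change was 3.27 ± 0.83 for high-fat against control (edgeR adjusted p = 0.0203) and 1.62 ± 0.82 for ketogenic against control (edgeR adjusted p = 0.214). The ketogenic value was 0.89 without ketogenic replicate 5 and 2.44 without control replicate 2. The high-fat call was lost without control replicate 3, 4 or 5, at adjusted p-values of 0.0555 to 0.0706, and with no filter on low counts (0.0701), and the change was 4.09 without control replicate 2. Control replicate 2, the highest control for this gene, also had the highest sums of the control libraries for the 10 intestinal markers (148 CPM against 31.8 to 65.0) and the 12 pancreatic acinar markers (1767 CPM against 25.9 to 189); their part in its Cyp2b10 level was not tested. Among the libraries numbered 13 and above, which leave that library out, the changes were 4.16 (adjusted p = 0.0151) and 2.87 (adjusted p = 0.0666). Ketogenic against high-fat gave −1.65 ± 0.67 with an edgeR adjusted p of 0.477, so the difference between the fat-rich diets was not called.

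The makeup of the Cyp2b transcripts was uneven in the same direction in every liver on a fat-rich diet. Cyp2b9 made up 81.1 to 94.8% of the summed Cyp2b counts on the high-fat diet and 86.2 to 98.0% on the ketogenic diet. In control livers, with 6 to 28 Cyp2b counts each, its share ran from 12.5 to 88.5%. Cyp2b13 made up 2.6 to 16.1% of the Cyp2b9 and Cyp2b13 counts in high-fat livers and 0.581 to 5.43% in ketogenic livers, ranges that overlap. To set aside the split between these copies, their counts were summed before the fit. The sum changed by 7.61 ± 0.91 for high-fat and 7.48 ± 0.90 for ketogenic against control on the log2 scale, with edgeR adjusted p-values of 0.000377 and 0.000237. Of their annotated neighbours, Cyp2b19 and Cyp2b23 had 0 counts in all 14 libraries, and Gm45225, which shares 13.8% of the 50-base stretches of Cyp2b13, held 0, 1 and 2 counts in the control, high-fat and ketogenic groups.

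**Figure D2:**
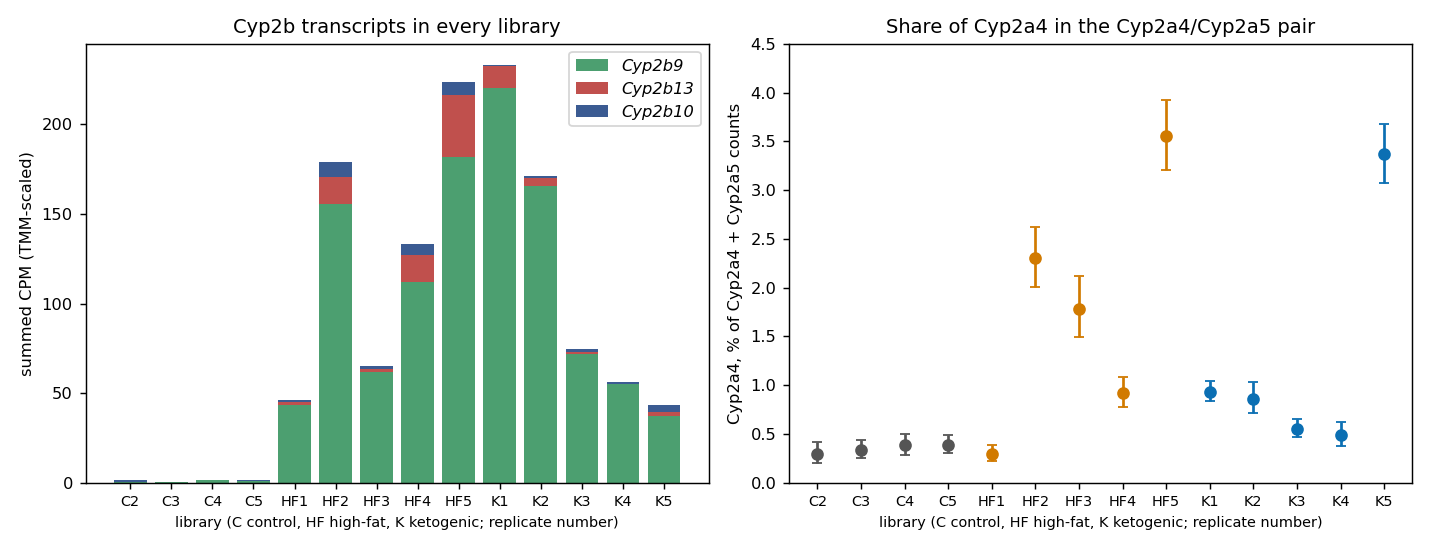
Left, summed CPM of the 3 Cyp2b genes in every library as stacked bars from 0; the controls lie at 0.305 to 1.6 CPM and the fat-rich diets at 43.3 to 233 CPM, most of it Cyp2b9. Right, Cyp2a4 as a percentage of the Cyp2a4 and Cyp2a5 counts in every library, with exact 95% binomial intervals that cover counting error only; high-fat replicate 5 (3.55%) and ketogenic replicate 5 (3.37%) are highest.

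Cyp2a5, the coumarin hydroxylase, had the highest mean level per kilobase of the 8 genes in every diet and was called in no comparison. Control replicates 2 to 5 had 632, 826, 721 and 1007 CPM, high-fat replicates 1 to 5 had 1006, 534, 336, 616 and 513, and ketogenic replicates 1 to 5 had 1381, 658, 1292, 627 and 492. The groups overlapped, with ketogenic replicates 1 and 3 the highest of the 14. The log2 fold change was −0.41 ± 0.33 for high-fat and 0.16 ± 0.33 for ketogenic against control, with edgeR adjusted p-values of 0.453 and 0.789, and 0.57 ± 0.31 for ketogenic against high-fat (edgeR adjusted p = 0.642).

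Cyp2a4, the steroid hydroxylase that is the near copy of Cyp2a5, was far lower. Its level was 1.87, 2.80, 2.77 and 3.94 CPM in control replicates 2 to 5. It was 3.01, 12.6, 6.11, 5.75 and 18.9 CPM in high-fat replicates 1 to 5 and 13, 5.70, 7.15, 3.08 and 17.2 CPM in ketogenic replicates 1 to 5. On each fat-rich diet 4 of 5 livers lay above all controls, and the fifth lay among them. The log2 fold change was 1.70 ± 0.56 in both comparisons with control, with edgeR adjusted p-values of 0.0666 and 0.0660, so neither was called. DESeq2 gave 1.69 and 1.67 with adjusted p-values of 0.00682 and 0.00754. Both comparisons also passed in edgeR without high-fat replicate 1 (adjusted p = 0.0279 and 0.0443) and without ketogenic replicate 4 (adjusted p = 0.0473 and 0.0328). Cyp2a4 made up 0.294 to 0.390% of the Cyp2a4 and Cyp2a5 counts in control livers, 0.298 to 3.55% on the high-fat diet and 0.489 to 3.37% on the ketogenic diet. Summed, the pair changed by −0.39 (edgeR adjusted p = 0.466) for high-fat and 0.17 (edgeR adjusted p = 0.771) for ketogenic against control. An annotated pseudogene, Cyp2a21-ps, shares 11.31% of the 50-base stretches of Cyp2a4 and 17.87% of those of Cyp2a5, and held 12, 28 and 50 counts in the control, high-fat and ketogenic groups.

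Cyp2a12, which is known as a steroid hydroxylase of mouse liver, changed little. Control replicates 2 to 5 had 369, 370, 415 and 409 CPM, high-fat replicates 1 to 5 had 503, 494, 396, 591 and 508, and ketogenic replicates 1 to 5 had 488, 505, 629, 594 and 457. All ketogenic livers and 4 of 5 high-fat livers lay above the highest control. The log2 fold change was 0.35 ± 0.13 for high-fat (edgeR adjusted p = 0.0942) and 0.45 ± 0.13 for ketogenic against control (edgeR adjusted p = 0.0348). That call was lost without any of 7 of the 14 libraries: control replicates 2 to 5 and ketogenic replicates 2, 3 and 4, at adjusted p-values of 0.0519 to 0.106. It was also lost under 5 of the 10 other settings, the libraries numbered 13 and above among them (0.49, adjusted p = 0.157). Library-total scaling, in contrast, gave 0.47 with an adjusted p of 0.00346 for the high-fat comparison.

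Cyp2a22, the near copy of Cyp2a12, was low in control livers and rose on both fat-rich diets. Its level was 0.905, 0.764, 1.23 and 1.14 CPM in control replicates 2 to 5. It was 3.41, 21.0, 13.3, 14.7 and 34.6 CPM in high-fat replicates 1 to 5 and 24.7, 20.8, 5.06, 4.92 and 22.2 CPM in ketogenic replicates 1 to 5. No liver on a fat-rich diet lay within the control range. On the log2 scale the change was 4.10 ± 0.74 for high-fat and 3.94 ± 0.74 for ketogenic against control, with edgeR adjusted p-values of 0.00388 and 0.00417. Both calls were kept when any 1 library was left out and under all 10 other settings tried. Among these settings, summed copies joined only Cyp2a4 with Cyp2a5 and Cyp2b9 with Cyp2b13. Cyp2a12 and Cyp2a22 were not summed, so the split of counts between them was not tested. Ketogenic against high-fat gave −0.16 ± 0.55 (edgeR adjusted p = 0.978).

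**Figure D3:**
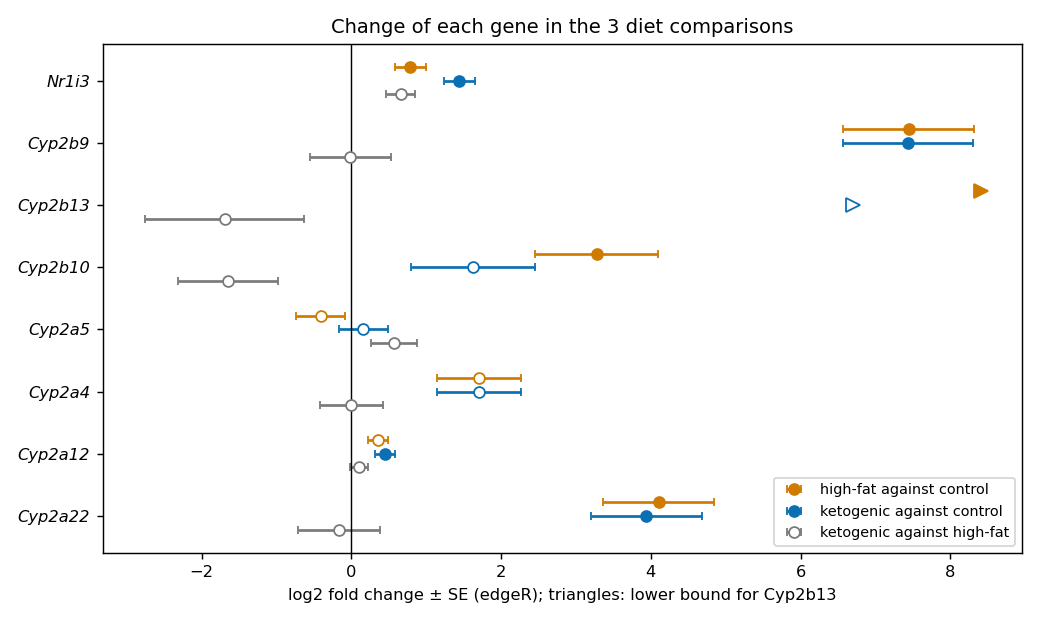
Log2 fold change ± SE of each gene (edgeR) in the 3 diet comparisons; filled symbols passed an adjusted p of 0.05 and open symbols did not. For Cyp2b13, which had no control counts, triangles give the log2 of the lower bound in place of a fitted value. Cyp2b9 and Cyp2a22 lie far to the right against control (7.44 and 4.10 on the high-fat diet) and near 0 between the fat-rich diets.

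Within each fat-rich diet the genes did not rank the livers alike. High-fat replicate 1 was the lowest of its group for Cyp2b9, Cyp2b13, Cyp2b10, Cyp2a4 and Cyp2a22 and the highest for Cyp2a5. Ketogenic replicate 5 was the lowest of its group for Nr1i3, Cyp2b9, Cyp2a5 and Cyp2a12 and the highest for Cyp2a4 and Cyp2b10. High-fat replicate 1 also had the highest acinar marker sum of its group, 798 CPM against 117 to 459, whose part in these levels was not tested. After the diet mean was taken off the log2 levels, Cyp2a22 moved with Cyp2b13 and with Cyp2a4 over the 14 libraries (Pearson r = 0.81 for each). Cyp2a4 and Cyp2b9 showed r = 0.71 and 0.67 with Cyp2b13, which had no counts in the control libraries. Cyp2a22 and Cyp2b9 showed r = 0.59. Nr1i3 showed r = 0.05 with Cyp2b9 and r = −0.37 with Cyp2b10. These values are descriptive, since libraries share depth and composition, and no test of a relation between the receptor and its target genes was run, with at most 5 libraries per diet.

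**Figure D4:**
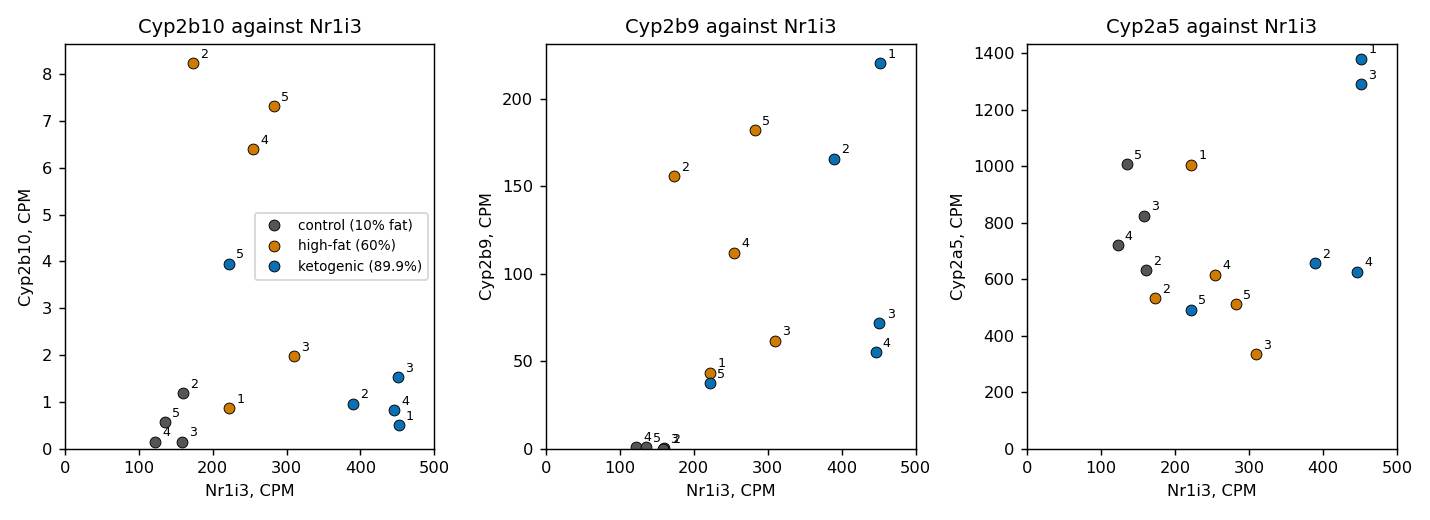
Level of Cyp2b10, Cyp2b9 and Cyp2a5 against that of Nr1i3 in every library, in CPM on linear axes, with replicate numbers beside the points. The ketogenic livers with the highest Nr1i3 (390 to 452 CPM) had Cyp2b10 at 0.509 to 1.53 CPM, and ketogenic replicate 5 (222 CPM) had 3.95 CPM. High-fat livers, at 173 to 310 CPM of Nr1i3, had 0.867 to 8.24 CPM of Cyp2b10. A relation between the genes was not tested.

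By level per kilobase of annotated exon, in control livers Cyp2a5 was highest (384 ± 77.8 CPM per kb, SD, n = 4), followed by Cyp2a12 (113 ± 7.15), Nr1i3 (32.7 ± 4.17) and Cyp2a4 (1.64 ± 0.489), each apart from the next. Cyp2b9, Cyp2a22 and Cyp2b10 came next with overlapping ranges, at 0.337, 0.293 and 0.244 CPM per kb on average, and Cyp2b13 was at 0. On both fat-rich diets Cyp2a5 and Cyp2a12 stayed first and second by mean, with overlapping ranges in high-fat livers (290 ± 120 against 144 ± 20.1). In high-fat livers Cyp2b9 (59.1 ± 31.5 CPM per kb) overlapped Nr1i3 (56.3 ± 12.1), and so it did in ketogenic livers (58.6 ± 42.1 against 88.8 ± 22.3). The annotated exons of Nr1i3 include the stretch shared with Tomm40l, so its level per kilobase may be understated. The same may hold for Cyp2a12 and Cyp2a22, whose annotated exons span 3457 and 3445 bases. Their longest protein-coding transcripts have 1681 and 1796 bases, whereas Cyp2a5 has 2073 bases of exon and a transcript of 2013. The order of the genes therefore depends on the length used. Cyp2b13, Cyp2a4, Cyp2a22 and Cyp2b10 were the 4 lowest genes on both fat-rich diets. That was their order by mean in high-fat livers. In ketogenic livers the order was Cyp2a4, Cyp2a22, Cyp2b13 and Cyp2b10, and neighbours overlapped in both.

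For each of the 8, the genes most like it after the diet mean was removed were taken by a rule as the 3 with the highest Pearson r of log2 CPM over 14 libraries. For Cyp2b9 these were Isoc1 (r = 0.924), Suclg2 (0.884) and Ildr2 (0.866), and for Cyp2b10 they were Rap1a (0.930), Calhm5 (0.904) and Aqp8 (0.887). For Cyp2a4 and Cyp2a22, Slc22a29 was among the 3 for both, at 0.931 and 0.910. For Nr1i3 they were Tdrkh (0.896), Lims2 (0.891) and Rhbdd3 (0.862), and for Cyp2b13, which has no counts in 4 of the 14, they were Cables1 (0.820), Ptbp1 (0.819) and Ifi44 (0.775). Cyp2a5 was closest to Usp5 (0.871), and Cyp2a12 to Cdadc1 (0.919).

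Of 20 partners and regulators of CAR and of the related receptor PXR, none rose, and 3 fell on the high-fat and 2 on the ketogenic diet against control. Over all tested genes 6.95% and 7.47% rose, so a count of 0 in 20 is near the background, and 5.01% and 4.60% fell. Prkaa2, a catalytic subunit of AMP-activated kinase, fell on both (by 0.48 and 0.55 on the log2 scale, edgeR adjusted p = 0.0346 and 0.0167). Egfr, the receptor through which growth factor signalling is known to hold CAR inactive, fell by 2.19 on the high-fat diet (edgeR adjusted p = 0.0142). Rxra, the partner of CAR, gave −0.31 and −0.27, and Nr1i2, which encodes PXR, gave 0.27 and 0.35, all 4 not called. Hnf4a, a factor that Nr1i3 and many hepatocyte genes depend on, gave −0.55 and −0.49, with edgeR adjusted p-values of 0.0506 and 0.0748.

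Of 35 tested genes known as CAR targets outside the Cyp2a and Cyp2b families, 6 rose and 2 fell in high-fat livers. In ketogenic livers 7 rose and 3 fell, and the medians were 0.26 and 0.29 on the log2 scale. Among all tested genes 6.95% and 7.47% rose and 5.01% and 4.60% fell, with medians of 0.0075 and 0.031. Abcc3, a basolateral export pump, rose by 1.88 and 1.89, and Aldh1a1 and Aldh1a7, aldehyde dehydrogenases, rose by 1.18 and 1.32 in high-fat livers, with Aldh1a1 up by 1.35 and Aldh1a7 by 1.4 in ketogenic livers. Ephx1, the microsomal epoxide hydrolase, rose by 0.80 and 1.0 (edgeR adjusted p = 0.00368 and 0.000612). Cyp2c29, a phenobarbital-inducible P450, went the other way: its level was 885 ± 271 CPM in control, 435 ± 123 in high-fat and 250 ± 94.2 in ketogenic livers (SD, n = 4, 5 and 5), a log2 change of −1.02 and −1.82 (edgeR adjusted p = 0.0291 and 0.000705). Ces2a, a carboxylesterase, fell by 0.95 and 0.92. Cyp3a11, the main PXR target P450, gave 1.61 and 1.41 with edgeR adjusted p-values of 0.201 and 0.259, and Por gave 0.04 and 0.06. Many of these genes answer to other receptors as well.

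Sex-biased genes were read beside Cyp2b9, Cyp2b13 and Cyp2a4. Of 24 tested female-biased liver genes outside the Cyp2a and Cyp2b families, 13 rose and 1 fell in high-fat livers. In ketogenic livers 12 rose and 1 fell, and the median was 1.40 on each diet. The shares over all tested genes were 6.95% and 7.47% higher, and 5.01% and 4.60% lower. Several that rose, namely Cyp4a10, Cyp4a14, Vnn1, Cd36, Acot3 and Acot4, are also known targets of the fatty acid receptor PPAR-alpha. Vnn1 rose by 3.59 and 3.90 and Cd36 by 3.12 and 2.99, and Abcd2, a peroxisomal fatty acid transporter, rose by 1.84 and 1.80. Cyp2c40, a P450 of the Cyp2c family, fell by 1.72 and 1.41. Of 27 tested male-biased liver genes, none rose, and 9 fell in high-fat and 4 in ketogenic livers, with medians of −1.33 and −0.72. Hsd3b2, a steroid dehydrogenase, fell by 0.76 and 0.65. Among 19 tested regulators of sex-biased genes, Stat5a rose by 1.07 and 1.18, Stat5b gave 0.48 in high-fat (edgeR adjusted p = 0.0213) and 0.30 in ketogenic livers (adjusted p = 0.124), and Foxa3 fell by 0.80 and 0.69. Bcl6, a repressor that is male-biased in liver, gave −0.17 and 0.50, neither called, and Cux2 did not pass the filter on low counts.

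**Figure D5:**
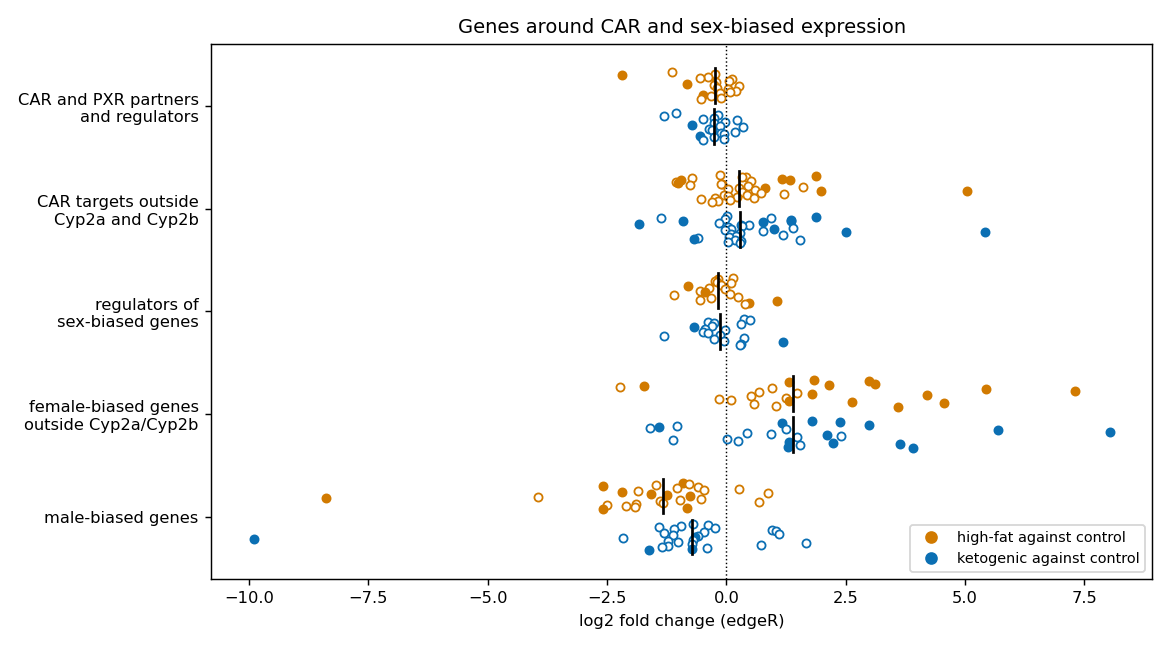
Log2 fold change against control (edgeR) of every tested gene in 5 lists around CAR and sex-biased expression, with filled points past an adjusted p of 0.05 and a black bar at each list's median. The female-biased list lies mostly to the right of 0 (median 1.40 on each diet) and the male-biased list mostly to the left (−1.33 and −0.72).

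Of 10 tested regulators of Cyp2a5, Bhlhe40, a circadian repressor, was called and fell by 0.43 and 0.71, a share near the 12.0% and 12.1% of all genes called in either direction. Nfe2l2, which encodes NRF2, gave 0.50 and 0.44 with edgeR adjusted p-values of 0.0616 and 0.1. Of 18 lipid-sensing nuclear receptors, 2 rose and 1 fell in high-fat livers, and 2 rose and 2 fell in ketogenic livers. Among all tested genes 6.95% and 7.47% rose, and 5.01% and 4.60% fell. Pparg rose by 1.95 and 1.86 and Rxrg by 1.04 and 0.91. Esrra was lower on both diets (−0.55 and −0.58), and Ppard was called lower in ketogenic livers only (−0.61). Ppara gave 0.34 and 0.27 (edgeR adjusted p = 0.447 and 0.533). The 3 other tested genes of the chromosome 7 cluster, Cyp2f2, Cyp2g1 and Cyp2s1, were called in no comparison. Zonation was read because CAR target P450 genes lie mainly around the central vein. Of 14 pericentral genes 1 rose on each fat-rich diet, a share near the 6.95% and 7.47% of all genes that rose. Of 14 periportal genes 1 rose and 2 fell in high-fat and 4 fell in ketogenic livers, where 5.01% and 4.60% of all genes fell.

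Markers of other tissues differed in level. The 12 pancreatic acinar markers summed to 25.9 to 1767 CPM in control livers, 117 to 798 CPM on the high-fat diet and 7.03 to 356 CPM on the ketogenic diet, and none of the 11 tested was called. The 8 kidney markers summed to at most 0.934 CPM in any library, and 4 of 5 lung markers were at 0 in all 3 groups. Intestinal markers summed to 31.8 to 148 CPM in control livers, 115 to 172 CPM on the high-fat diet and 142 to 190 CPM on the ketogenic diet. On the fat-rich diets most of this was Fabp2, which liver also expresses. Its level was 46.2 ± 18.7 CPM in control, 126 ± 22 in high-fat and 142 ± 17.4 in ketogenic livers (SD, n = 4, 5 and 5). In control replicate 2 the sum was 148 CPM, while Fabp2 was at most 64.5 CPM in any control library, so most of that sum came from other intestinal markers. Cdx1 and Cdx2, which define intestinal epithelium, were at 0 on both fat-rich diets and were detected in control libraries. Lgals4 was higher on the fat-rich diets by mean (7.90 ± 6.97, 14.3 ± 4.56 and 22.4 ± 4.51 CPM, SD, n = 4, 5 and 5). Vil1, a brush border protein, had 3.28 ± 5.74 CPM in control, 0.480 ± 0.289 in high-fat and 0.215 ± 0.136 in ketogenic livers (SD, n = 4, 5 and 5). It was called lower in ketogenic livers (edgeR adjusted p = 0.0327). Its control median was 0.536 CPM and its control maximum 11.9 CPM, so the control mean rests largely on 1 library. Of the 4 tested intestinal markers, 1 was called higher in high-fat livers, and 2 higher and 1 lower in ketogenic livers. Over all genes 12.0% and 12.1% were called in either direction. The part of these tissues in the Cyp2a and Cyp2b values was not tested.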

How the data were processed

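Strand-keeping libraries were made from poly(A) RNA, per the labels' protocols. Each deposited value is a raw count of reads for 1 Ensembl gene in 1 library. The submitters' processing notes list STAR 2.7.9a, featureCounts 1.6, cutadapt 1.16, DESeq2 1.36.0 and build GRCm39 without saying how each was used. Control replicate 1, excluded by the submitters as contaminated, entered no comparison.

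The filter was filterByExpr of edgeR 4.0.16, with 10 as the minimum count and 15 as the minimum total. Counts were scaled with TMM (factors 0.886 to 1.215). All 3 diets entered a single model, tested two-sided with glmQLFTest after robust glmQLFit (R 4.3.3), and the common biological coefficient of variation came to 0.25. Benjamini-Hochberg adjustment ran over the 14627 tested genes, with a threshold of 0.05, and the SE of a log2 fold change is its size divided by the square root of F. For Cyp2b13, with 0 control counts, 3 counts over the control group served as the floor. The scripts were tested on simulated counts. DESeq2 1.42.0, other scalings and filters, fits on 2 diets, replicate and library numbers, summed copies and single libraries left out were tried as alternatives.

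Symbols, exon lengths and transcripts came from GENCODE M21, and symbols matched 91.39% of all IDs. The genes named were all 8 members, up to 3 genes per list, direction and comparison taken by smallest adjusted p among those called, 10 regulators and targets whatever their result, and the 3 genes most correlated with each member; the text prints part of these, and 1 list member is not reported here by name. The 8 genes, the lists and the rule were chosen with earlier results of these data known. Other genes named, such as the 6 PPAR-alpha targets, Fabp2 and Tomm40l, were picked after their values were seen.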

Additional observations from a re-analysis of the deposited data

Results flagged for a closer look

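In the ketogenic group, Nr1i3 in replicate 5 stood apart at 221.87 CPM, while the other 4 ketogenic livers lay at 389.8 to 451.72 CPM. The gap was 0.731 of the group's range, above Dixon's critical value of 0.710 for 5 samples. With 24 groups examined, chance alone flags about 1 group in 20.

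Control replicate 1, which was used in no comparison, lay above the other 4 control libraries for 3 of the 8 genes when scaled together with them. Cyp2a5 was at 1029 CPM against 631 to 1006, Cyp2a22 at 2.09 CPM against 0.762 to 1.23, and Nr1i3 at 229 CPM against 122 to 160. It lay below them for Cyp2a12, at 284 CPM against 368 to 414, and for Cyp2b10, at 0.0465 CPM (1 count) against 0.152 to 1.19, and it had 0 counts of Cyp2b13. As the submitters set this library aside as contaminated, these values carry no comparison.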

How the results depend on the processing

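Of 564 values recomputed for the 8 genes, 494 kept their direction and side of the threshold, 28 lost their call, 15 gained one and 27 changed sign, all of the last in differences that were not called. Nr1i3 and Cyp2b9 in ketogenic livers, Cyp2b9 in high-fat livers and Cyp2a22 in both, all against control, kept their calls under every alternative and without any 1 library. No alternative summed Cyp2a12 with Cyp2a22. The causes of the other changes were not tested. Genes called between ketogenic and high-fat livers numbered 9, against 169 with DESeq2 (59 higher, 110 lower), 15 with library totals, 26 with no filter on low counts, 1 with only the diets compared, and 0 among the libraries numbered 13 and above, where high-fat and ketogenic against control gave 1106 and 795 in place of 1749 and 1766. Without 1 library at a time these counts ran from 1 to 315, from 934 to 2617 and from 1056 to 2201. Library totals moved the median gene by 0.134 and 0.208 on the log2 scale against control, and the calls from 1016 higher and 733 lower to 1302 and 420, and from 1093 and 673 to 1826 and 368. Depth limits the genes that are low in controls: Cyp2b13, Cyp2b10, Cyp2b9 and Cyp2a22 held 0, 37, 47 and 75 counts over the 4 control libraries.

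The replicate numbers did not pair the samples: over 13 same-numbered pairs the correlation of deviations ran from −0.404 to 0.418, with 3 over 0.1, and 3 of 14 libraries correlated best with their own number. With a replicate block, 1380, 1297 and 15 genes were called in high-fat against control, ketogenic against control and ketogenic against high-fat, and the adjusted p was 0.0524 for Nr1i3 and 0.0702 for Cyp2b13 in high-fat and 0.0736 for Cyp2a12 in ketogenic against control livers.

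Signs changed as follows. Cyp2a4 in ketogenic against high-fat livers went from 0.000023 to −0.016 with DESeq2, −0.0084 with its size factors, −0.0069 with no filter, −0.0027 with only the diets compared, −0.014 with the replicate block and −0.156 among the libraries numbered 13 and above. For Cyp2b9 in that comparison library totals gave 0.036. For ketogenic against control, Cyp2a5 was −0.097 with the block and −0.083 among the libraries numbered 13 and above, and Cyp2a4 and Cyp2a5 summed were −0.081 and −0.072. With 1 library left out, ketogenic against high-fat ran from −0.356 to 0.436 for Cyp2a4, from −0.426 to 0.244 for Cyp2a22, from −0.432 to 0.239 for Cyp2b9 and from −0.564 to 0.170 for Cyp2b9 and Cyp2b13 summed. Ketogenic against control ran from −0.052 to 0.293 for Cyp2a5 and from −0.042 to 0.301 for the summed Cyp2a4 and Cyp2a5.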
